A study of Mus musculus with 12 samples.

Results

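Resident macrophages and classical monocytes of adult mouse bone marrow were compared in 6 of the 12 libraries of the series. The libraries were taken by their labels: 3 of eYFP- macrophages, which the study calls adult-derived, and 3 of Ly6Chi monocytes, the circulating type that can settle in tissues and become macrophages. Of the groups of genes described here, those of iron and heme handling (16 of 23 tested genes), complement (14 of 18) and lysosomal hydrolysis (24 of 45) were mostly or often higher in the macrophages. Those of classical monocytes (17 of 18 tested genes), the phagocyte NADPH oxidase (5 of 6), leukocyte trafficking (14 of 21) and glycolysis (12 of 23) were mostly lower. Of all tested genes, 16.3% were higher and 11.1% were lower. Transcripts of the ferroportin gene Slc40a1, for example, averaged 5633 TPM (transcripts per length, scaled to the same total in every library) in the macrophages and 13.2 TPM in the monocytes, while transcripts of the monocyte chemokine receptor Ccr2 averaged 6.45 and 674 TPM. All 17 tested erythroid markers were also higher in the macrophages, and the part of erythroid RNA in the iron result was not tested.

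All cells came from bone marrow of female C57BL/6J mice aged 8 weeks. The study's methods give these mice as reporters in which Cre under the Rank locus switches on eYFP from Rosa26. Macrophages were sorted as CD45+, F4/80hi, CD206+ and VCAM1+ after enrichment on F4/80 beads, and were divided into eYFP- and eYFP+. Monocytes were divided by Ly6C into Ly6Chi and Ly6Clo. An eYFP- cell is one in which the reporter was not recombined, so adult descent is inferred from a missing signal and the counts do not test it. The eYFP+ macrophages, labelled as embryonic, and the Ly6Clo monocytes shared the statistical fit and are given only as values beside the others.

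Classical monocytes leave the bone marrow for the blood by way of Ccr2 and enter tissues, where they can differentiate. Macrophages that stay in the marrow surround developing red cells in erythroblastic islands, engulf the nuclei that these cells expel and dying blood cells, and return iron from heme to the plasma. Many of these tasks rest on receptors that recognise dying cells, on lysosomal enzymes and on the iron exporter ferroportin. The comparison sets the possible start of an adult path against its end, with no intermediate stage and no time course.

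The macrophage libraries held between 39423527 and 43971175 counts and the monocyte libraries between 28432458 and 33156563. Within groups the variance-stabilised values of the macrophage libraries correlated at r = 0.958, 0.973 and 0.976 across genes and those of the monocyte libraries at 0.987 to 0.988, so the macrophages were the more variable group. Outside the comparison, Ly6Clo replicate 2 had the fewest genes with a count (16434 against 21330 to 27634 in the others), and 7479 instead of 5682 genes passed the test when it was left out of the fit. Within the macrophages and within the Ly6Chi monocytes no pair of libraries shared more than 4.51% of its counts exactly, and all 6 were used as separate samples. The labels do not say whether replicates came from separate mice, so p-values measure the spread between these samples. All samples were bulk, so fewer cells of a type and less RNA per cell cannot be told apart in any result below.

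Of 20749 genes tested with DESeq2, 5682 (27.4%) differed at adjusted p under 0.05. Of these, 3378 (16.3% of tested genes) were higher in the macrophages and 2304 (11.1%) were lower. A second test asked for a difference beyond 2-fold, and 2067 genes (9.96%) passed it, 1375 higher (6.63%) and 692 lower (3.34%). Of the called genes, 1486 were more than 8-fold higher and 721 more than 8-fold lower, while the median over all tested genes was 0.08 on the log2 scale. These percentages are the background against which the members of each group of genes are read. Normalized counts below are counts divided by the size factor of the library, log2 differences are macrophages minus monocytes, given with their standard error (SE) after ±, and levels of different genes are compared only in TPM. A gene is said to have risen or fallen where it passed the first test and was higher or lower in macrophages, and the size given after it is the log2 difference.

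The 12 leading genes in each direction were ranked by the test statistic among genes whose groups did not overlap, so their separation was a condition of the choice. The ficolin gene Fcna (ENSMUSG00000026938), a soluble lectin of the innate immune system, had 220432, 143294 and 167244 normalized counts in the macrophages. The monocytes had 172, 233 and 241, a difference of 9.68 ± 0.31 on the log2 scale (DESeq2 adjusted p = 1.51e-210). Cd5l, a secreted scavenger-receptor protein of tissue macrophages, had 81081, 76138 and 73058 normalized counts against 151, 148 and 176 in the monocytes, 485-fold higher (adjusted p = 2.22e-198). For Cd5l the eYFP+ macrophages had 96812, 94054 and 86782 and the Ly6Clo monocytes 419, 418 and 757 normalized counts, each far on the side of the tested group of its cell type.

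Igf1, which encodes a growth factor, had 30376, 33324 and 28640 normalized counts in macrophages and 128, 89.9 and 75.3 in monocytes. Slc40a1 (ENSMUSG00000025993) had 427977, 332129 and 332243 against 1033, 780 and 950. C1qb (ENSMUSG00000036905), a chain of the complement component C1q, had 307091, 244059 and 264436 against 837, 766 and 518. Every macrophage library was far above every monocyte library in these 3 genes, and the log2 differences were 8.29 ± 0.31, 8.63 ± 0.33 and 8.59 ± 0.38. Pld3, a lysosomal nuclease, was 88.8-fold higher and the organic anion transporter gene Slco2b1 was 1460-fold higher, at 34754, 39062 and 45209 normalized counts against 23.3, 30.4 and 27.9. Serpinb6a, a protease inhibitor, was 44.3-fold higher, the elastase-family gene Cela1 140-fold and Rasgef1b, a guanine nucleotide exchange factor, 18.8-fold. Ccr3, the eotaxin receptor known from eosinophils, was 815-fold higher, with 42717, 35011 and 38513 normalized counts in the macrophages and 26.5, 59.5 and 57.1 in the monocytes. The remaining leading gene, Vcam1, was a sorting antigen.

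**Figure D1:**
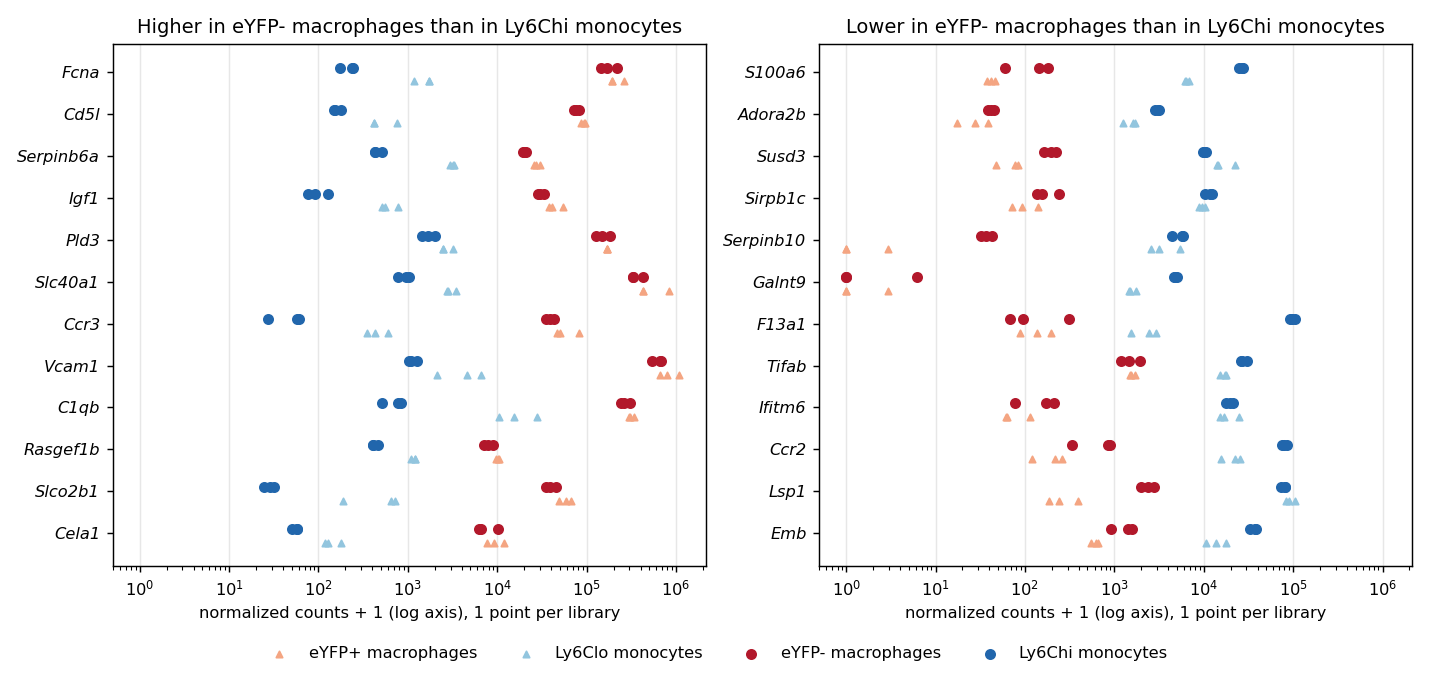
Normalized counts plus 1 on a log axis (x) of the 12 leading genes in each direction (y), with 1 point per library. Circles are the eYFP- macrophages and Ly6Chi monocytes that were tested and triangles are the eYFP+ macrophages and Ly6Clo monocytes, shown for comparison only; the 24 genes were chosen among those in which the circles of the tested groups do not overlap.

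Among the lower genes, S100a6 (ENSMUSG00000001025), a calcium-binding protein, had 59.3, 178 and 143 normalized counts in macrophages and 26443, 27753 and 25044 in monocytes, a log2 difference of -7.70 ± 0.37 (adjusted p = 4.88e-94). F13a1, the A subunit of coagulation factor XIII, had 66.6, 309 and 93.7 against 96848, 104048 and 93365. Ccr2, the receptor through which monocytes leave the marrow, had 331, 882 and 844 against 79133, 74943 and 85956, 117-fold lower in macrophages. Macrophage replicate 1 was the lowest of its group in each of these genes. Galnt9, a glycosyltransferase gene, had no count in macrophage replicates 1 and 3 and 5.21 normalized counts in replicate 2, against 4794, 4684 and 5015 in monocytes. Lsp1 and Emb, an actin-binding protein of leukocytes and a transmembrane glycoprotein of the immunoglobulin superfamily, were 32.6-fold and 27.5-fold lower. The adenosine receptor gene Adora2b was 74.3-fold lower, Serpinb10 147-fold, Sirpb1c 65.8-fold, Susd3 53.1-fold, Tifab 18.1-fold and Ifitm6 129-fold. Ly6Clo monocytes differed between these genes in where they lay: Lsp1 stood at 82227, 104606 and 89283 normalized counts and F13a1 at 2914, 2444 and 1517, the former above and the latter far below the 3 Ly6Chi libraries.

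Levels in TPM give the most abundant transcripts of each group. The most abundant transcript of the macrophages was Apoe, the lipid carrier apolipoprotein E, at 25590 ± 5083 TPM (SD, n = 3), followed by the alpha globin gene Hba-a1 at 14212 ± 4378 and C1qb at 13037 ± 419. The ferritin genes Fth1 and Ftl1, Vcam1 and Itm2b were also among the 10 highest. In the monocytes the lysozyme gene Lyz2 alone took 6.86% of all TPM, 68569 ± 1160, against 4785 ± 739 in the macrophages. S100a8, Ifitm3, Tyrobp and Ly6c2 were among the monocytes' 10 highest. The actin-sequestering gene Tmsb4x was among the 10 highest of both groups, at 12436 and 17147 TPM on average, and did not pass the test (log2 difference -0.58 ± 0.37), though it passed without Ly6Clo replicate 2 in the fit (-0.63).

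The sorting antigens that set the groups apart followed the gates, which is a check of the labels and no finding. Adgre1, which encodes F4/80, was 4.41-fold higher in macrophages, Mrc1 (CD206) 85.1-fold and Vcam1 554-fold. Mrc1 varied among the macrophage libraries, at 38647, 118137 and 54716 normalized counts, with replicate 2 highest. Ly6c1 was 310-fold lower. Ly6c2, which shares much of its sequence with Ly6c1 so that the split between them is uncertain, had 29.2, 327 and 46 normalized counts against 118762, 101457 and 99157. DESeq2 set aside Ly6c2 and the CD11b gene Itgam because 1 macrophage library, replicate 2, stood out, and without that rule their adjusted p was 6.52e-32 and 1.52e-20. Ptprc, the pan-leukocyte antigen CD45, was 3.11-fold lower in macrophages, although the study gated both groups as CD45+. Without macrophage replicate 2 the log2 difference of Mrc1 was 5.82 instead of 6.41, and without replicate 3 that of Ly6c1 was -8.99 instead of -8.28.

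Of 18 tested classical monocyte genes, 17 fell and none rose, against 11.1% of all tested genes that were lower, and the median log2 difference was -6.75. Each of the 17 also passed the test against 2-fold. The extracellular matrix gene Fn1 had 6.39, 369 and 7.53 normalized counts in macrophages and 93181, 115367 and 103871 in monocytes (log2 difference -9.67 ± 1.60). S100a4, a calcium-binding protein of motile cells, fell by 8.96 on the log2 scale, the proteoglycan gene Vcan by 7.76 and the chitinase-like gene Chil3 by 7.48. The calprotectin genes S100a8 and S100a9, which neutrophils also express, fell by 4.98 and 4.97 and yet stayed at 35.1, 946 and 82.5 TPM for S100a8 in the macrophages, where replicate 2 was far above the others. Replicate 2 was also the highest macrophage library for Fn1, Ly6c2 and Itgam. The exception was Mgst1, a microsomal glutathione transferase gene, at 779, 497 and 597 TPM in macrophages and 537, 658 and 672 TPM in monocytes, where the groups overlapped. Without macrophage replicate 2 the log2 differences were -13.86 for Fn1, -9.79 for S100a4, -8.94 for Vcan, -12.31 for Chil3, -7.40 for S100a8 and -8.39 for S100a9, and without replicate 1 that of Vcan was -7.17.

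Trafficking receptors and adhesion molecules fell in 14 of 21 tested members and rose in 4 (median -2.06). Besides Ccr2, the inflammatory chemokine receptor gene Ccr1 fell by 4.82 and Cx3cr1, the receptor of fractalkine, by 2.80. Cxcr4, which holds cells in the marrow by binding Cxcl12, fell by 2.56, to 2.57 from 13.4 TPM. The integrin genes Itgal, Itgb7 and Itga4 fell by 4.90, 4.88 and 2.56, whereas the common beta 1 chain gene Itgb1 overlapped between the groups. Without macrophage replicate 2 the log2 difference of Cxcr4 was -3.19.

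The genes that rose in this group were Fpr1, S1pr1, Pecam1 and Icam1. Fpr1, the receptor of formylated bacterial peptides, stood at 678, 512 and 617 TPM in macrophages and 7.8, 20 and 25.2 TPM in monocytes, 31.8-fold higher. The sphingosine phosphate receptor S1pr1 rose by 6.93 from a level close to 0, at 2.76, 3.08 and 4.08 TPM in macrophages, and Pecam1, an adhesion molecule shared by leukocytes and endothelium, rose by 2.79. Among actin and motility regulators 15 of 28 fell and 1, Evl, rose (2 without Ly6Clo replicate 2 or without eYFP+ replicate 1). Capg, a capping protein of actin filaments, fell by 5.73, Coro1a, a coronin, by 4.94 and Tmsb10 by 3.46. The difference of S1pr1 was 6.30 without monocyte replicate 1, 6.34 without replicate 2 and 9.84 without replicate 3.

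Iron and heme genes rose in 16 of 23 tested members and fell in 2 (1 without macrophage replicate 1 or 3 or monocyte replicate 1 or 3, and 4 without Ly6Clo replicate 2), against 16.3% and 11.1% of all tested genes, with a median log2 difference of 2.21. The receptor that takes up haptoglobin-bound hemoglobin, Cd163, had 28078, 76904 and 62165 normalized counts in macrophages and 338, 162 and 327 in monocytes. Macrophage replicate 2 held the most and replicate 1 the fewest, and all were far above the monocytes (202-fold, adjusted p = 8.6e-69). Slc48a1, which carries heme out of the phagolysosome, rose by 3.22 ± 0.44 and Hmox1, which opens the heme ring, by 4.57 ± 0.57. Hmox1 had 122037, 222211 and 146449 normalized counts against 5997, 7128 and 7515. The biliverdin reductase genes Blvra and Blvrb, whose products make bilirubin, rose by 2.40 and 4.06.

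Ferritin stores iron and ferroportin exports it, and the genes of each were higher in macrophages. Fth1, the heavy chain, stood at 11885, 9544 and 8636 TPM in macrophages and 1913, 2058 and 2074 TPM in monocytes. Ftl1, the light chain, whose reads are split with the near-identical copy Ftl1-ps1, rose by 2.32. Ncoa4, the receptor that delivers ferritin to the lysosome, rose by 2.04. Among the metal transporters Slc11a1 and Slc11a2 rose by 1.79 and 1.82, less than Slc40a1 at 8.63. The plasma iron carrier transferrin, Trf, rose by 3.49 to 7031 TPM, and Cp, a ferroxidase, by 2.61 at a low level. Without monocyte replicate 1 the log2 difference of Cp was 3.64.

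Regulators of the iron genes moved in either direction. Spic, the transcription factor required for red pulp and bone marrow iron-recycling macrophages, had 77281, 46350 and 52916 normalized counts against 186, 228 and 175, 300-fold higher. Bach1, a heme-sensitive repressor of Hmox1 and ferroportin, fell by 2.55 to 2.13 from 11.2 TPM. Nfe2l2, which encodes the activator Nrf2, did not pass the test, at 112 and 166 TPM, and passed it without Ly6Clo replicate 2 in the fit (log2 difference -0.73).

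**Figure D2:**
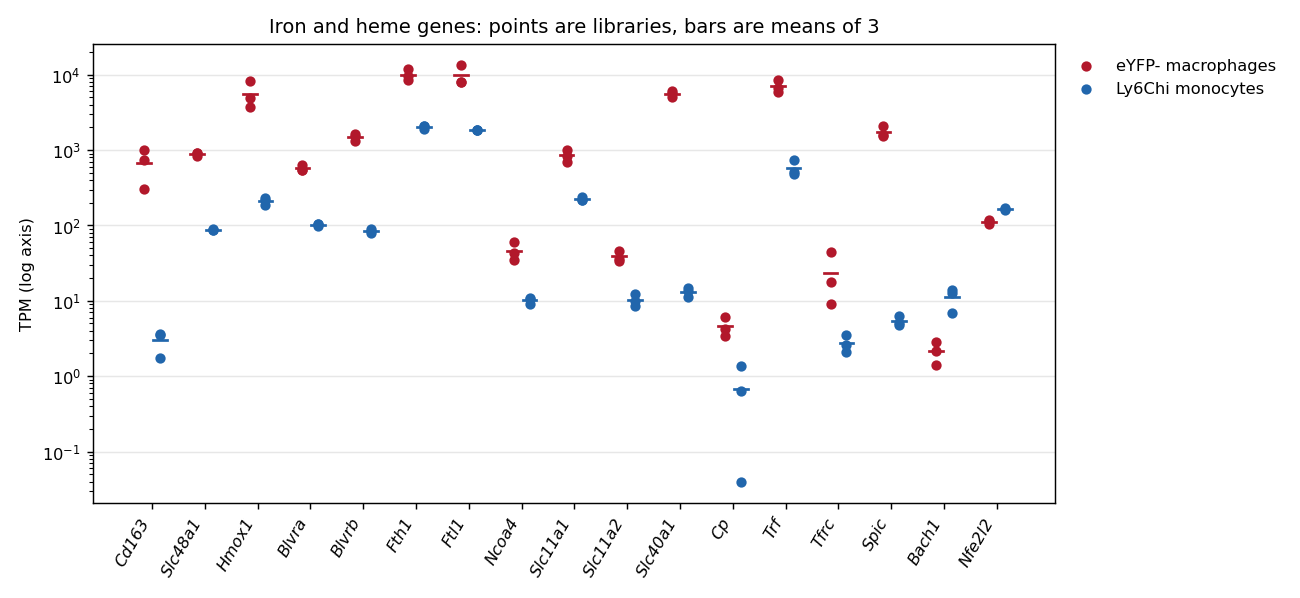
TPM on a log axis (y) of 17 iron and heme genes (x), with 1 point per library and a bar at the mean of 3, for eYFP- macrophages and Ly6Chi monocytes. The macrophage points lie above the monocyte points in each gene except Bach1 and Nfe2l2.

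Erythroid transcripts moved with these genes. All 17 tested erythroid markers rose, with a median log2 difference of 5.36, and their summed level was 35730, 22572 and 32002 TPM in the macrophage libraries against 370, 898 and 615 TPM in the monocyte libraries. In the eYFP+ macrophages the same sum was 14585, 8864 and 10583 TPM. Globin made up most of it, and Klf1, an erythroid transcription factor gene, moved with it, at 249, 91.8 and 150 TPM in macrophages against 4.35 TPM on average in monocytes. No defining erythroid marker was at 0 in either group. Tfrc, the transferrin receptor, which erythroblasts use to take up iron, rose by 2.92 and stood at 9.06, 44.2 and 17.5 TPM in the macrophages, with replicate 2 highest. The part of erythroid RNA in the iron, erythroblast and cell cycle results was not tested. In the eYFP+ libraries, with their lower erythroid sum, Slc40a1 stood at 11503, 6655 and 6909 TPM and Hmox1 at 4801, 10668 and 8425 TPM. In the eYFP- libraries they stood at 6067, 5699 and 5133 TPM and 3716, 8189 and 4860 TPM. Without macrophage replicate 2 the log2 difference of Tfrc was 2.22.

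Genes of the erythroblastic island rose in 10 of 13 tested members and none fell (2 in a fit of the 6 libraries alone or without eYFP+ replicate 1 and Ly6Clo replicate 2; median 4.63). Epor, the erythropoietin receptor, had 8176, 5267 and 6801 normalized counts in macrophages and 20.1, 43.7 and 37.7 in monocytes (7.64 ± 0.90). It stood at 122, 204 and 189 TPM in eYFP+ macrophages and 222, 173 and 201 TPM in eYFP- macrophages. Siglec1, the sialic acid receptor CD169 that marks island macrophages, rose by 2.93 and lost the call without macrophage replicate 2 (2.24), and Dnase2a, the lysosomal nuclease that digests expelled nuclei, by 2.35. Maea, the erythroblast attachment protein, did not pass the test (log2 difference -0.55 ± 0.38).

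Receptors for dying cells were split. Of 19 tested genes, 9 rose and 5 fell (median 0.62). Mertk, a receptor kinase for phosphatidylserine bridged by Gas6 or protein S, had 11879, 36687 and 23031 normalized counts and the monocytes 162, 40.1 and 102. Axl, its relative, stood at 1210, 2860 and 2345 TPM against 83.7, 55.6 and 93.4 TPM and its ligand Gas6 rose by 4.38, whereas the other ligand gene, Pros1, fell by 1.52. The call of Gas6 was lost without any 1 of 5 of the libraries, monocyte replicate 1 being the exception, at log2 differences of 3.83 to 4.49. Timd4 and Stab2, which bind phosphatidylserine directly, rose by 8.36 and 8.14, and the cross-linking enzyme Tgm2 by 4.99. Of the integrin genes with a part in uptake, the beta 5 chain gene Itgb5 rose by 2.93 and the beta 3 chain gene Itgb3 fell by 3.39. Anxa1 fell by 3.65 from 498 TPM. Dock1, an activator of Rac in engulfment, fell by 2.02. The log2 difference was 7.54 for Gas6 and 9.12 for Timd4 without monocyte replicate 1, and -2.66 for Dock1 without macrophage replicate 2.

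Scavenger and lectin receptors rose in 8 of 18 and fell in 4 (median 0.97). Marco, a collagen-like scavenger receptor, had no count in any Ly6Chi library and 2261, 2358 and 2159 normalized counts in the macrophages, at least 647-fold higher. The lectin gene Cd209f rose by 10.03 and Clec1b, the receptor of podoplanin, by 7.52. Cd209a, a relative of Cd209f, fell by 4.74, Msr1 by 2.67 and Clec7a, the beta-glucan receptor Dectin-1, by 1.87. Mrc1 counts here among the members although it was used to sort. Without monocyte replicate 3 the log2 difference of Clec1b was 8.19.

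Complement genes rose in 14 of 18 tested members and fell in 3 (5 without Ly6Clo replicate 2), and the median log2 difference was 4.22, or 3.43 with the gene that had no count in the monocytes at its lower bound. The C1q chains C1qa, C1qb and C1qc, which bind immune complexes and dying cells, rose by 8.89, 8.59 and 9.52. C1qc had 286849, 70627 and 218220 normalized counts in macrophages, lowest in replicate 2, and 346, 214 and 224 in monocytes. Ly6Clo monocytes had 6708, 5657 and 4175. Vsig4, the receptor of C3b and iC3b on tissue macrophages, rose by 10.05. The regulators Cd55 and Cd59a, which protect cells from complement, rose by 7.45 and 8.64. Cfp, properdin, stood at 5167, 4565 and 5151 TPM against 311, 431 and 438 TPM. C3, the central component, fell by 4.92 and the anaphylatoxin receptor C5ar1 by 2.06. The log2 difference of C3 was -5.76 without macrophage replicate 2 and that of Cd55 was 8.08 without monocyte replicate 1.

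**Figure D3:**
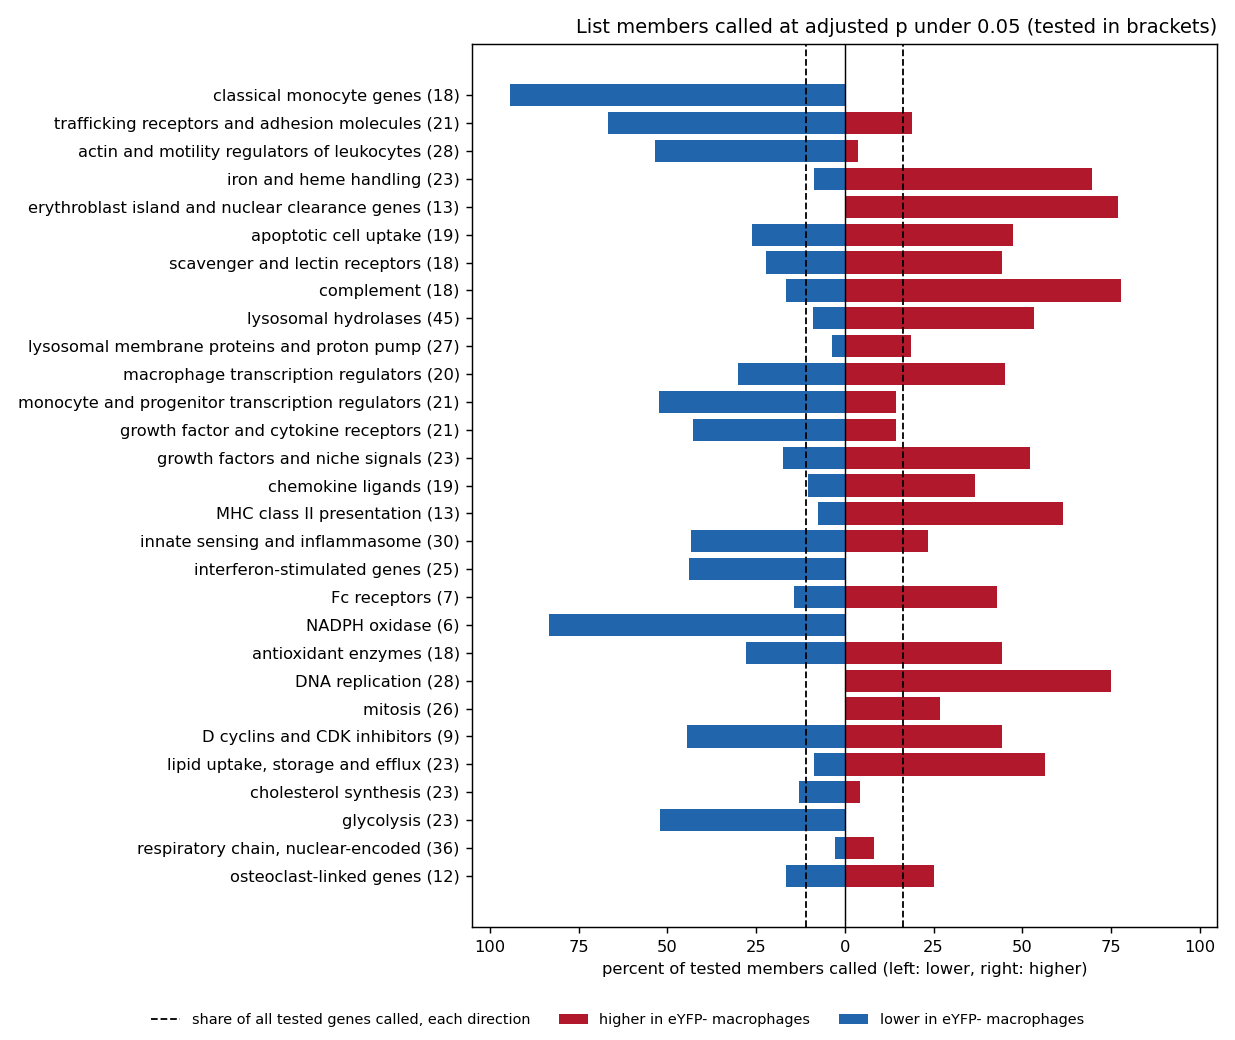
Percent of tested members (x) of 29 gene lists of function (y, tested members in brackets) that were higher (right, red) or lower (left, blue) in eYFP- macrophages than in Ly6Chi monocytes at DESeq2 adjusted p under 0.05. Dashed lines mark the shares over all tested genes, 16.3% higher and 11.1% lower; among these lists the classical monocyte and NADPH oxidase lists reach furthest to the left and the complement and erythroblast island lists furthest to the right.

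The lysosome differed by part. Of 45 hydrolase genes, 24 rose and 4 fell (8 in the 6 libraries alone), with a median log2 difference of 0.72. Of 27 genes of lysosomal membrane proteins and the proton pump, 5 rose and 1 fell, with a median of 0.28 and a share of risers close to the 16.3% of all genes. Without any 1 of the 6 libraries 3 of these membrane and pump genes rose, and 0 to 1 fell (2 without Ly6Clo replicate 2). The hydrolases summed to 44393, 37914 and 38272 TPM in the macrophage libraries and 16947, 16461 and 18031 TPM in the monocyte libraries.

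Ctsd, the aspartic protease cathepsin D, had 303048, 276777 and 281145 normalized counts in macrophages and 11303, 12594 and 14917 in monocytes (4.47 ± 0.28). Lgmn, the asparaginyl endopeptidase, rose by 3.49, Acp5, the tartrate-resistant acid phosphatase, by 4.40, Ctsf by 4.87 and Ctsb by 2.71. Pld3, named above, was the hydrolase with the greatest difference of the list. Other abundant hydrolases did not follow: Ctss stood at 3762, 3085 and 3364 TPM in macrophages and 4484, 4327 and 4728 TPM in monocytes without passing the test, and Psap, the saposin precursor, overlapped between the groups. Galns, an enzyme of glycosaminoglycan breakdown, fell by 2.60. Of the membrane genes, Cd63 rose by 2.44, and the pump subunit gene Atp6v1a fell by 0.71. Lamp1, a main membrane protein of the lysosome, overlapped between the groups.

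Many lysosomal genes carry an E-box, TCACGTGA around the core CACGTG, which binds the MiT family of transcription factors that includes TFEB. Both motifs are their own reverse complement, and TCACGTGA contains CACGTG. In the RefSeq promoter table of GRCm38.p6, which covers 250 bases before to 50 after the start, 57 of 72 members of both lysosomal lists had an entry. TCACGTGA stood in 14.0% of these 57 genes and in 1.12% of all 27025 genes with a promoter, and CACGTG in 31.6% and 8.09%. The share with TCACGTGA was 8.33% among hydrolases and 23.8% among membrane and pump genes. Of the 8 genes that hold it, 1 rose, 1 fell and the median log2 difference was 0.19; of the 49 without it, 21 rose and the median was 0.51. The 250 bases before the start are shown for the gene of these 8 that rose and for the gene that fell, with TCACGTGA in capitals, both on the minus strand and written in the direction of the gene; Ctsd lies at chr7:142387828-142388077 with the motif at -99 from the start, and Atp6v1a at chr16:44139260-44139509 with the motif at -132.
Ctsd: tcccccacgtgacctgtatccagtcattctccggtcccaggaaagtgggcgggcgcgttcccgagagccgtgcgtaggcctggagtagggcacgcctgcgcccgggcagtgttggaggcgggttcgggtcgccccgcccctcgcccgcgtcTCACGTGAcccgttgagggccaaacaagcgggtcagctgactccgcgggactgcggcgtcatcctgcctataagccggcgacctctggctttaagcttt
Atp6v1a: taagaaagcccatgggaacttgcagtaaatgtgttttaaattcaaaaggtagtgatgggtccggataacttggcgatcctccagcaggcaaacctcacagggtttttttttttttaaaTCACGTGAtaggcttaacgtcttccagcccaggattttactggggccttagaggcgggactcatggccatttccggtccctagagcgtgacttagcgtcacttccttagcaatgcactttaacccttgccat
The motif stood before a gene that was 22.2-fold higher and before one that was 1.64-fold lower. The call of Atp6v1a was lost without macrophage replicate 1 or 3 or monocyte replicate 1 or 2, at log2 differences of -0.73 to -0.59.

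Transcription factors known from macrophages rose in 9 of 20 tested members and fell in 6 (median 0.25). The lipid-sensing nuclear receptor genes Pparg and Nr1h3, the latter encoding LXR alpha, were led by Pparg, with 14784, 10570 and 13267 normalized counts in the macrophage libraries and 295, 151 and 155 in the monocyte libraries. Nr1h3 had 13103, 10917 and 11724 against 220, 187 and 311. Maf, which holds macrophages in a differentiated state, rose by 4.52 and Bhlhe41 by 4.78 at a level of 1.14 TPM. Runx3 fell by 3.85, Atf3, a stress-induced factor, by 2.84 and Id1 by 2.73. The difference of Bhlhe41 was 4.16 without monocyte replicate 1 and 5.82 without replicate 3.

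Regulators of monocytes and progenitors fell in 11 of 21 and rose in 3 (1 without macrophage replicate 2 or monocyte replicate 1 or 2, and 5 in a fit of the 6 libraries alone; median -0.90). Irf4 fell by 4.19, Klf4, a factor of monocyte development, by 2.98 and Klf2 by 2.71. Nr4a1, which is required for Ly6Clo monocytes, fell by 2.24 relative to the Ly6Chi monocytes. Myc, a driver of growth and proliferation, was among the risers, with 5313, 4402 and 5275 normalized counts against 225, 335 and 447. Its counts in eYFP+ macrophages were 2474, 2449 and 1898.

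Receptors of growth factors and cytokines fell in 9 of 21 and rose in 3 (5 without Ly6Clo replicate 2; median -0.78). Without Ly6Clo replicate 2 and eYFP+ replicate 1 in the fit 14 fell. Csf1r, the receptor on which most macrophages depend, overlapped between the groups at 686, 1280 and 975 TPM in macrophages and 1141, 1046 and 1162 TPM in monocytes. The receptor genes of GM-CSF, Csf2ra and Csf2rb, fell by 1.79 and 2.51, that of G-CSF, Csf3r, by 2.75, the interleukin-17 receptor gene Il17ra by 4.08 and the decoy receptor gene Il1r2 by 4.98. Tnfrsf11a, which encodes Rank and whose locus drives the Cre of the reporter, rose by 1.32 at a low level. Its TPM was 2.67, 2.59 and 1.93 in eYFP- macrophages, 2.5, 3.89 and 3.79 in eYFP+ macrophages and 1.15, 0.782 and 0.733 in Ly6Chi monocytes. The difference of Il1r2 was -4.39 without macrophage replicate 1 and -5.81 without replicate 2.

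Growth factors and niche signals rose in 12 of 23 and fell in 4 (median 2.61). Bmp2, a bone morphogenetic protein, had 1608, 2003 and 2077 normalized counts in macrophages and 0, 0 and 6.07 in monocytes. Kitl, the stem cell factor that holds hematopoietic stem cells in their niche, stood at 10.2, 38.8 and 16.7 TPM against 0.308, 0.177 and 0.0518 TPM. The platelet-derived growth factor genes Pdgfa, Pdgfb and Pdgfc rose by 4.26, 5.82 and 7.68, Vegfb by 5.63, and Angpt1 by 4.15. The B cell survival factor genes Tnfsf13 and Tnfsf13b fell by 1.93 and 4.96. Cxcl12, the main retention signal of stem cells in the marrow, was at 46.2, 34.2 and 62.9 TPM in macrophages and 28.6, 0.428 and 0.686 TPM in monocytes, where replicate 1 stood apart, and did not pass the test. Without that library it passed, at a log2 difference of 6.31. Markers of stroma and endothelium, which also make Kitl, Angpt1 and Cxcl12, rose in 6 of 11 tested members (2 without macrophage replicate 1, 3 without replicate 2, 2 with edgeR and 1 with edgeR and a replicate block), and their sum was 113, 93.7 and 126 TPM in macrophages and 41.3, 7.31 and 9.42 TPM in monocytes. Pecam1 and Cxcl12 made up most of that sum, and the collagen gene Col1a1, called only with all libraries or without macrophage replicate 3 or monocyte replicate 1 or 3, stood at 1.36, 1.67 and 0.309 TPM. The study gated macrophages as CD45+ and its stromal and endothelial cells as CD45-. The part of stroma and endothelium in these results was not tested. Without monocyte replicate 1 the log2 differences of Angpt1 and Pdgfb were 4.86 and 6.49, without replicate 2 that of Vegfb was 6.25 and without replicate 3 that of Pdgfc was 9.16.

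Chemokine genes rose in 7 of 19 and fell in 2 (median 2.00). Their summed level went the other way, at 1162, 1149 and 1254 TPM in macrophages and 3337, 3448 and 4048 TPM in monocytes. Ccl8 had no count in the Ly6Chi libraries and 1195, 522 and 757 normalized counts in the macrophages, at least 236-fold higher. Pf4, platelet factor 4, rose by 6.48, Ccl12, a ligand of Ccr2, by 5.40 and Ccl4 by 2.81. Ccl9 and Ccl6, which attract myeloid cells, fell by 5.73 and 2.21. Without monocyte replicate 1 the log2 differences of Pf4 and Ccl12 were 7.15 and 8.46, and without macrophage replicate 1 that of Ccl12 was 4.53.

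MHC class II genes rose in 8 of 13 and fell in 1 (median 1.39). The chain genes H2-Aa, H2-Ab1 and H2-Eb1 rose by 1.62, 1.84 and 2.09. Their sum with the other members was 10464, 15543 and 22295 TPM in macrophages and 5113, 3353 and 6684 TPM in monocytes, with macrophage replicate 1 lowest and replicate 3 highest. The co-stimulator gene Cd86 rose by 3.44 and Cd40 fell by 1.38. Ciita, the transactivator of class II genes, overlapped between the groups. Dendritic cell markers rose in 5 of 10 (3 without macrophage replicate 2 or 3 or monocyte replicate 2), among them Xcr1 at 2.4, 5.21 and 7.05 TPM in macrophages, and fell in 1. The part of dendritic cells in the class II result was not tested.

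Sensors of microbes and inflammasome genes rose in 7 of 30 and fell in 13 (8 without macrophage replicate 1; median -0.80). The parts of the lipopolysaccharide receptor, Tlr4, Cd14 and Ly96, rose by 2.51, 2.61 and 1.25, while its adaptors Myd88 and Tirap fell by 1.26 and 0.95. The flagellin sensors Tlr5 and Naip5 fell by 3.22 and 1.64, Casp4, the sensor of cytosolic lipopolysaccharide, by 2.06. Il1a had 2603, 1785 and 2196 normalized counts in macrophages against 1.06, 8.5 and 2.43, and Il18 rose by 3.39, whereas the receptor antagonist gene Il1rn fell by 3.26. The difference of Tlr5 was -2.63 without macrophage replicate 1 and -3.87 without replicate 3.

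Interferon-stimulated genes fell in 11 of 25 and none rose (median -0.98). Without Ly6Clo replicate 2 in the fit 19 fell and 1 rose. Oas3, an antiviral sensor of double-stranded RNA, stood at 6.81, 22.9 and 15.6 TPM in macrophages against 189, 114 and 153 TPM in monocytes, and Zbp1, Oasl1 and Oasl2 fell by 2.73, 2.66 and 2.36. Fc receptors rose in 3 of 7 and fell in 1 (2 without Ly6Clo replicate 2; median 0.44). Among them, Fcgrt, the neonatal receptor that recycles antibody and albumin, rose by 3.81, the activating receptor genes Fcgr4 and Fcgr1 by 2.14 and 0.95, and the inhibitory receptor gene Fcgr2b fell by 2.56.

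The NADPH oxidase makes superoxide in phagosomes, and 5 of its 6 genes fell while none rose (median -2.54). Ncf1, the organiser subunit p47phox, had 599, 1669 and 844 normalized counts in macrophages and 20156, 16809 and 15508 in monocytes. The catalytic subunit gene Cybb fell by 2.86, and the subunit gene Ncf4 by 3.14. Cyba, the membrane partner of Cybb, overlapped at 3229, 2500 and 2838 and 2479, 2492 and 2775 TPM. Antioxidant enzymes rose in 8 of 18 and fell in 5 (3 without macrophage replicate 2 or any monocyte library; median 0.15). Nqo1, Gclm and Srxn1, known targets of Nrf2, rose by 4.13, 3.75 and 2.96, while the peroxiredoxin gene Prdx5 and the glutathione reductase gene Gsr fell by 2.55 and 2.68. Without monocyte replicate 2 the log2 difference of Nqo1 was 4.92.

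Lipid genes rose in 13 of 23 and fell in 2 (1 to 4 with a library left out; median 1.12). Fabp4, a fatty acid carrier, had 10828, 9249 and 10664 normalized counts in macrophages and 80.6, 94.7 and 66.8 in monocytes. The cholesterol efflux pump genes Abca1 and Abcg1 rose by 4.38 and 1.52, the lipoprotein lipase gene Lpl by 2.41, the lysosomal acid lipase gene Lipa by 2.34 and Apoe by 2.22. Soat1, which esterifies cholesterol for storage, fell by 1.28. Cholesterol synthesis was near or below the background, with 1 of 23 genes higher (2 without Ly6Clo replicate 2) and 3 lower (median 0.07). Without macrophage replicate 2 the log2 difference of Abca1 was 3.71.

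Glycolysis genes fell in 12 of 23 and none rose (median -1.02), whereas nuclear-encoded genes of the respiratory chain rose in 3 of 36 and fell in 1 (3 without macrophage replicate 1, 2 without eYFP+ replicate 1 and 4 without Ly6Clo replicate 2; median -0.03), below the background in either direction. The hexose transporter genes Slc2a6 and Slc2a1 fell by 6.76 and 1.99. Slc2a6 had 58.4, 64 and 86.2 normalized counts in macrophages and 7646, 7102 and 7817 in monocytes. The hexokinase gene Hk2 fell by 2.11, the regulator gene Pfkfb4 by 2.22 and the pyruvate kinase gene Pkm by 2.46. Ldha, lactate dehydrogenase A, overlapped between the groups.

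**Figure D4:**
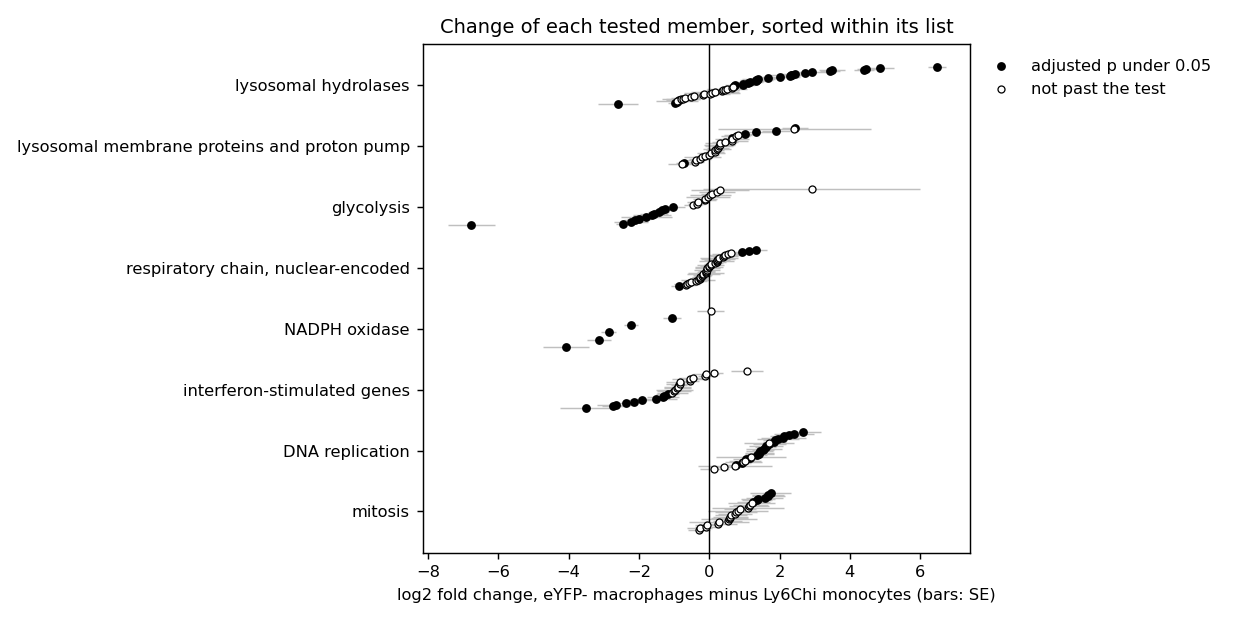
Log2 difference, macrophages minus monocytes (x, bars are SE), of each tested member of 8 lists (y), sorted within the list; filled points passed DESeq2 adjusted p under 0.05 and open points did not. Glycolysis, NADPH oxidase and interferon-stimulated members lie mostly left of 0, hydrolases and DNA replication mostly right, and respiratory chain members around 0.

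Every DNA replication or mitosis gene that passed the test was higher in macrophages. Of 28 DNA replication genes 21 rose and none fell (median 1.49), while of 26 mitosis genes 7 rose and none fell (median 0.79). With macrophage replicate 1 or 3 or monocyte replicate 3 left out 2 mitosis genes rose, and 3 without monocyte replicate 2. In a fit of the 6 libraries alone 14 mitosis genes rose, and 13 without eYFP+ replicate 1 and Ly6Clo replicate 2. The helicase gene Mcm6 had 10675, 6426 and 7776 normalized counts in macrophages and 2625, 2155 and 2114 in monocytes. The helicase gene Mcm2 rose by 2.13, the licensing factor gene Cdc6 by 2.41 and Ccne1, the cyclin of S phase entry, by 2.67. Ube2c, which marks mitotic cyclins for destruction, rose by 1.68, but Mki67, Top2a and Aurkb did not pass the test. Top2a stood at 18.9, 31.1 and 19.9 TPM and 18.2, 19 and 15.9 TPM, and the groups overlapped.

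The replication genes summed to 1557, 1010 and 1148 TPM in eYFP- macrophages, 579, 434 and 453 in eYFP+ macrophages, 448, 413 and 359 in Ly6Chi monocytes and 366, 385 and 377 in Ly6Clo monocytes. The erythroid sum stood, in the same order of groups, at 22572 to 35730, 8864 to 14585, 370 to 898 and 509 to 1416 TPM. Within the eYFP- macrophages replicate 1 was highest and replicate 2 lowest in the erythroid, the replication and the mitosis sums. Among D cyclins and inhibitors of their kinases, 4 of 9 rose (2 without macrophage replicate 1 or monocyte replicate 3) and 4 fell (2 without macrophage replicate 3 or monocyte replicate 1 or 2; median 0.94). The D cyclin genes Ccnd1 and Ccnd2 rose by 5.54 and 6.46, and the inhibitor gene Cdkn1a fell by 2.06. The whole list summed to 524, 339 and 405 TPM in macrophages and 900, 883 and 772 TPM in monocytes.

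Genes known from osteoclasts, the bone-resorbing relatives of macrophages, rose in 3 of 12 and fell in 2 (median -0.30). Acp5, named among the hydrolases, and Car2, carbonic anhydrase 2, rose, the latter by 5.57 to 1536, 631 and 1055 TPM. Car2 is also expressed by erythroid cells. The defining protease gene Ctsk stood at 0.506 and 0.448 TPM, and Itgb3 fell as given above.

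Markers of other blood cells were checked against the gates. Neutrophil and granulocyte precursor markers fell in 9 of 15 (5 without Ly6Clo replicate 2) and none rose. They summed to 268, 2800 and 927 TPM in macrophages, highest in replicate 2, and to 25014, 16574 and 21518 TPM in monocytes, of which S100a8 and S100a9, shared with monocytes, made up more than any other member. Ngp and Camp, granule proteins of neutrophils, stood at 2684 and 2555 TPM on average in the monocyte libraries. Eosinophil, basophil and mast cell markers rose in 5 of 9 tested (2 without any 1 macrophage library, and 8 with limma on log2(TPM + 1)), and summed to 894, 957 and 1968 TPM in macrophages against 4.84, 2.87 and 49.9 TPM in monocytes. Ccr3 gave 613 to 624 TPM of this in each macrophage library, while the eosinophil granule gene Prg2 stood at 103, 68.4 and 917 TPM and Epx, eosinophil peroxidase, at 0.584, 4.41 and 54.3 TPM, both highest in replicate 3.

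Markers of T and NK cells rose in 6 of 13 and none fell (median 4.63), and summed to 137, 254 and 268 TPM in macrophages and 51.9, 28.6 and 38.4 TPM in monocytes. Cd4 stood at 71.5, 129 and 133 TPM in macrophages, where the T cell receptor component Cd3e stood at 0.0895, 0.206 and 0.209 TPM. The natural killer cell receptor gene Ncr1 stood at 5.1, 11.9 and 9.56 TPM, the kinase gene Lck of T cell receptor signalling at 2.73, 6.91 and 7.3 TPM and the granzyme gene Gzmb at 3.34, 9.82 and 7.16 TPM in macrophages, and these genes rose too. The call of Gzmb was lost without macrophage replicate 1 or 3 or monocyte replicate 1, at log2 differences of 4.75 to 5.33. B cell markers rose in 3 of 10 and fell in 1 (median 0.75), and their sums overlapped between the groups. Cd79b, a chain of the B cell receptor complex, stood at 583, 449 and 506 TPM and its partner Cd79a at 0.449, 4.55 and 0.0299 TPM. The inhibitory receptor gene Cd22 rose by 5.37, and the immunoglobulin heavy chain gene Ighm fell by 3.95. Megakaryocyte markers rose in 6 of 10, led by Pf4, Clec1b and Itga2b, whereas Tubb1 and Ppbp, abundant in platelets, stood at 0.698 and 1.83 TPM and did not pass the test. Stem and progenitor markers rose in 5 of 10, led by Gata2, a factor shared with mast cells and basophils, at 9.26, 12.5 and 17.4 TPM. The part of these cell types in the results above was not tested.

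**Figure D5:**
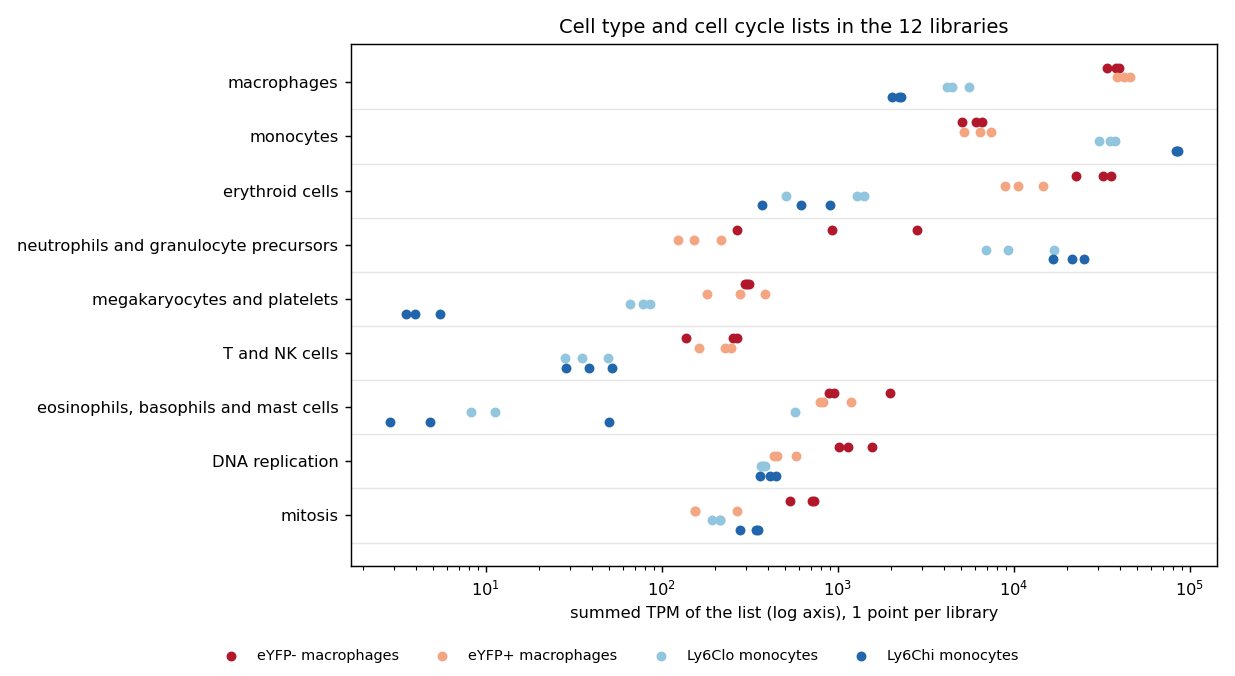
Summed TPM on a log axis (x) of 7 cell type lists and of the DNA replication and mitosis lists (y), with 1 point for each of the 12 libraries. Erythroid sums are highest in the eYFP- macrophages (22572 to 35730 TPM), as are the replication and mitosis sums, and neutrophil sums are highest in the Ly6Chi and Ly6Clo monocytes.

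The defining markers of the labelled cell types were in place. Among them Adgre1, Ly6c2 and Itgam had served for sorting, so part of this was set by the gates. Macrophage markers summed to 39743, 33853 and 38196 TPM in the macrophages and 2214, 2026 and 2284 TPM in the monocytes, with 12 of 13 higher and Csf1r the exception. Monocyte markers summed to 6120, 6618 and 5089 TPM in the macrophages and 83421, 85624 and 84086 TPM in the monocytes, where Lyz2 made up most of the sum, and 8 of 9 fell.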

How the data were processed

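The study sorted myeloid cells of mouse bone marrow, amplified full-length cDNA from polyadenylated RNA and sequenced it in pairs. Per its methods, the authors trimmed reads (Trimmomatic, Cutadapt), corrected errors (Rcorrector), removed ribosomal reads (SortMeRNA), aligned with segemehl to GRCm39 and deposited counts, the whole numbers of unambiguous read pairs per gene from featureCounts. Near-identical and overlapping genes lose reads by this rule, and the use of strand is not given in the sources used here. The authors also deposited TPM, which divide counts by gene length within each library, and variance-stabilised values, which resemble log2 counts and were used here only to compare replicates. The submitters' processing notes name bcl2fastq 2.20.0.422, featureCounts and DESeq2. No molecular identifiers were described, so amplified reads are not independent molecules.

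Counts of all 12 libraries were fitted with DESeq2 1.42.0 in R 4.3.3, with group as the only factor, a Wald test of eYFP- macrophages minus Ly6Chi monocytes, and Benjamini-Hochberg adjusted p under 0.05. The second test was against an absolute log2 difference of 1. Depth ran from 28432458 to 43971175 counts in the 6 libraries compared. Columns were matched by sample labels and all were used. GENCODE M21 symbols matched 91.4% of 56953 gene identifiers; its build differs from that of the files, so no gene coordinates are given other than RefSeq promoters of GRCm38.p6. Where 2 identifiers shared a listed symbol, the one with more counts was used.

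Leading genes needed a symbol that is no predicted-gene name, the 2-fold test, at least 50 normalized counts on average and groups that did not overlap, and were ranked by the Wald statistic; 12 were taken in each direction. The 10 highest TPM per group, up to 4 members of each list with the largest change, members that define a list, and the sorting antigens were also eligible. The comparison, the 41 gene lists and the members named were chosen with earlier results of these data known. Lower bounds set a group without counts to 3 counts in each library. The first test, with DESeq2, edgeR and limma, was also run on data with known changes simulated from the 6 libraries compared. The test against 2-fold was not run on simulated data. Alternatives were edgeR 4.0.16 (quasi-likelihood), limma 3.58.1 on log2(TPM + 1) or log2(TPM + 0.1), TMM and total-count scaling, other filters, a replicate block, the 6 libraries alone and leaving out libraries. Leaving out Ly6Clo replicate 2 or eYFP+ replicate 1 alone was added after seeing the data. A few members of the lists were counted but are not reported here by name.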

Additional observations from a re-analysis of the deposited data

How the results depend on the processing

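The 5682 genes that differed became 8601 (4650 higher and 3951 lower) when eYFP+ replicate 1 and Ly6Clo replicate 2 were left out of the fit, of which 5645 were among the 5682, and 5964 or 7479 when 1 of these libraries was left out. Apart from edgeR with a replicate block (3679), other settings with all 6 libraries of the comparison gave 4455 to 7933, the highest on these 6 alone. Without 1 library of the comparison the count ran from 4314 to 5288. The 2067 genes beyond 2-fold became 1034 beyond 4-fold, ran from 1653 to 1940 without 1 library and from 2016 to 2892 otherwise. edgeR called 4455 genes, and 4418 (99.2%) were among those of DESeq2. TMM and total-count scaling moved the median log2 difference of all tested genes by less than 0.1.

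Pairing was to be called where each same-numbered pair of libraries correlated at over 0.1 in deviations from the group means. The pairs gave -0.14, -0.00687 and 0.248, so it was not called. Only the third macrophage library correlated best with its own number. With 3 libraries a group, these values cannot show that pairing was absent. Library numbers in the column names ran through all groups of a replicate number before the next. Whether same-numbered samples shared a mouse or day is not given. A replicate block gave 5699 genes and 2613 beyond 2-fold, 5575 and 2016 with at least 10 counts in 3 libraries, and 3679 with edgeR.

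The genes named that changed sign, Cd79a, Ctsk, Cyba, Mgst1 and Psap, did not pass the test. With 1 library left out their log2 differences ran from -1.42 to 1.73 for Cd79a, -0.31 to 0.31 for Ctsk, -0.12 to 0.19 for Cyba, -0.36 to 0.11 for Mgst1 and -0.01 to 0.69 for Psap. On the 6 libraries Ctsk gave -0.03 and Cyba -0.01, without the 2 outside libraries Ctsk gave -0.02, and with edgeR Ctsk gave -0.01. With edgeR and the replicate block Ctsk gave -0.00 and Cyba -0.01. The cause was not tested. Of 5628 pairs of a named gene or list member and a setting, 5488 kept direction and side of the threshold. Without eYFP+ replicate 1 and Ly6Clo replicate 2 in the fit 8 lysosomal membrane and pump genes rose instead of 5 and 4 fell instead of 1, and 6 respiratory chain genes fell instead of 1 and 4 osteoclast-linked genes instead of 2. In the same fit 3 cholesterol synthesis genes rose instead of 1, 2 dendritic cell markers fell instead of 1 and 1 stem and progenitor marker fell instead of 0. With edgeR and the replicate block 5 antioxidant genes rose instead of 8. Genes with few counts in a group, such as Bmp2 in the monocytes, have wide errors, and 3 libraries a group limit every call.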
